A study of Nematostella vectensis with 8 samples.

Results

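Replicates 1-2 and replicates 3-4, which are separate sets of embryo pools, were compared in the starlet sea anemone Nematostella vectensis. The sets were chosen by the replicate number in the titles, 4 libraries against 4 of 8 in all. Each set held 2 libraries from a knockdown by injected short hairpin RNA (shRNA) of NvfoxE-like, which encodes a forkhead transcription factor, and 2 from scramble RNA as the control, so treatment was balanced over the sets. All embryos carried the wildtype genotype, were raised at 24 °C and were collected as whole gastrulae 28 hours after fertilization. About 1000 injected embryos made up a replicate, the methods name a combination of shRNAs for the knockdown, and all samples had an RNA integrity number of at least 8.0. Differences are given as replicates 3-4 minus replicates 1-2 with treatment as a covariate, and a gene is called where edgeR's Benjamini-Hochberg adjusted p was 0.05 or less and the difference was at least 1.5-fold.

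The libraries of replicates 1 and 2 carried the name prefix LA19_2 and those of replicates 3 and 4 the prefix LA20_3, while the batch tag of all 8 libraries reads the same and the names of all 8 deposited tables hold 1 prefix. What the prefix marks is therefore not known, and the set cannot be told apart from anything else that may have differed with it, such as the spawn, the day of injection or the library preparation. In the methods the knockdown and control of a replicate are called paired. Where the 2 libraries of a number share embryos of a spawn, the tests across 8 libraries measure in part a spread that is not independent.

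Cnidocytes are the stinging cells of cnidarians. Each holds a capsule with a coiled, ejectable tubule, whose wall is built from minicollagens and other capsule proteins and which can carry toxins. In Nematostella embryos cnidocytes arise scattered through the ectoderm from sox-expressing progenitors, and the zinc-finger gene znf845 and the paired-box gene paxA act in turn in their specification. The published cnidocyte genes followed here were 38 genes of the study's supplementary collection: 15 transcription factors, the target foxE-like, 7 capsule genes, 5 toxin genes and 10 other genes. The collection itself has no such classes, and these were assigned here by gene name. In bulk samples fewer cells of a type and less RNA per cell cannot be told apart.

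Many genes differed between the sets, in both directions. Of 19002 genes tested, 5108 were higher in replicates 3-4 (26.9%) and 4835 were lower (25.4%), together 9943 or 52.3%. The median size of the log2 difference over all genes tested was 0.80, and 37.9% of genes differed by more than 2-fold. Among called genes the median was 1.46 for the higher ones and -1.03 for the lower ones. In 28.6% of genes all 4 libraries of replicates 3-4 lay above all 4 of replicates 1-2, and in 28% they all lay below, together 56.7%.

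These calls rested on treating the 8 libraries as separate samples. When the estimated counts of the shRNA and control library of each number were summed, which leaves 2 replicate numbers against 2, edgeR called 8 genes higher and 4 lower of 20481 tested (0.0586%). In that fit 0.0391% of genes were called higher and 0.0195% lower, and 4503 and 3463 passed the fold limit at an unadjusted p under 0.05. Leaving out both libraries of replicate 3 took the calls to 0 in either direction (3844 and 3587 at an unadjusted p under 0.05), and the control libraries alone gave 0 calls (3632 and 2613 likewise). Without replicate 2 there were 3632 higher and 2658 lower genes, and without replicate 4 there were 3511 and 2632. The shRNA libraries alone gave 2097 and 868. With scaling by library totals alone the calls were 6057 higher and 3177 lower, so that 65.6% of calls were higher in place of 51.4%, and the median of all genes moved by 0.24 on the log2 scale.

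The largest differences were mostly in the direction of replicates 3-4. Between 1.5-fold and 2-fold there were 1074 higher and 2239 lower genes, and between 2-fold and 4-fold 2790 and 2543. From 4-fold to 16-fold the counts were 1170 and 49, and beyond 16-fold 74 and 4. The median level of the higher genes in those 4 classes fell from 27.4 through 20.5 and 11.8 to 3.22 CPM (counts relative to library size, scaled by TMM), so the largest differences were at low levels.

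The direction went with level. Among 1800 genes with a mean level under 1 CPM, 10.3% were higher and 4.78% lower in replicates 3-4. At 1 to 10 CPM the shares were 23.3% and 17.2%, and at 10 to 100 CPM 33.9% and 31.4%. At 100 to 1000 CPM the order turned, with 21.8% higher and 43% lower, and of the 116 genes over 1000 CPM 6.9% were higher and 60.3% lower. Without replicate 2 the shares over 1000 CPM were 7.29% and 37.5%.

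**Figure D1:**
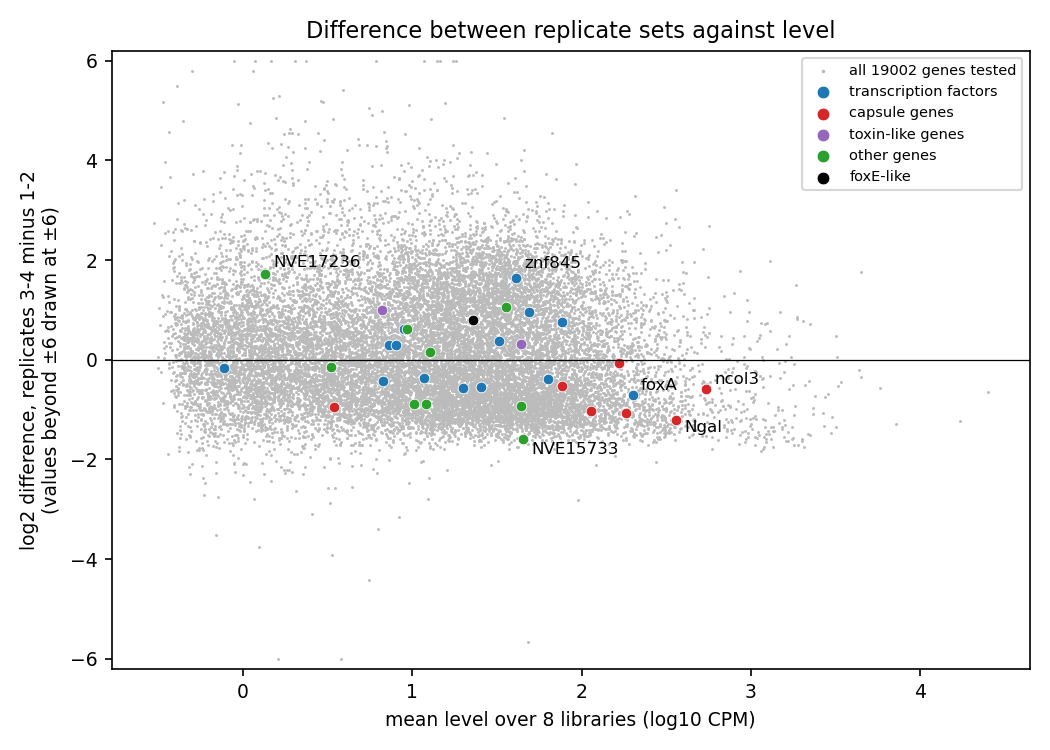
Log2 difference of each gene between the replicate sets (vertical axis, positive where replicates 3-4 were higher) against its mean level over the 8 libraries (horizontal axis, log10 CPM). Grey points are the 19002 genes tested and coloured points 33 tested cnidocyte genes by class. The grey cloud reaches further up than down at low levels and lies mostly under 0 at the highest levels, where 60.3% of genes over 1000 CPM were lower.

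Counts were spread over more genes in replicates 3-4. It took 475 to 643 genes to make up 50% of the counts in libraries of replicates 1-2 and 848 to 1111 genes in replicates 3-4. The 100 most abundant genes held 25.5% to 27.9% of the counts in the first set and 18.0% to 23.5% in the second. Genes with an estimated count of at least 1 numbered 21014 to 21862 and 22072 to 22292. In each of these measures the 4 libraries of one set lay apart from the 4 of the other, and the library totals did not separate the sets, at 18656270 to 25364825 estimated counts in replicates 1-2 and 19668957 to 26073612 in replicates 3-4.

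**Figure D2:**
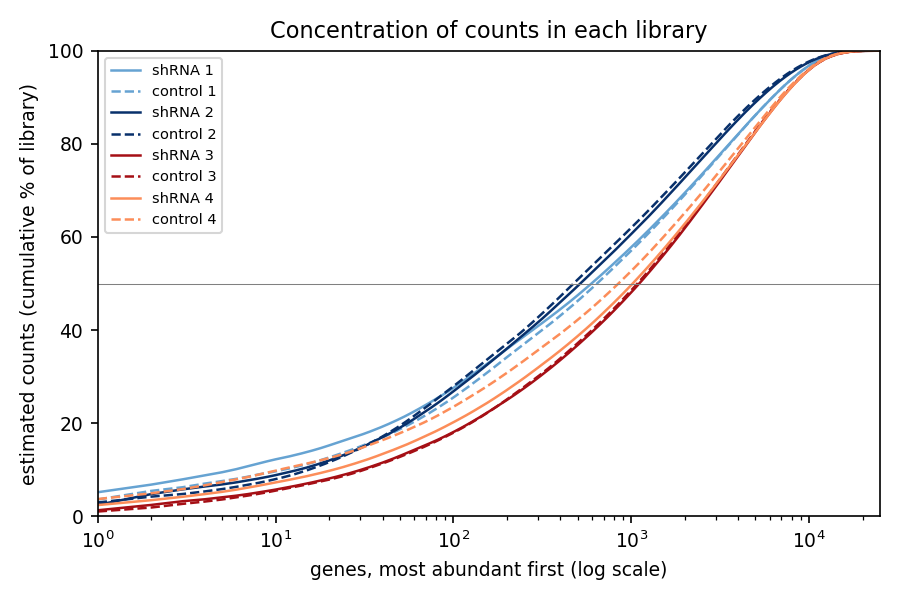
Cumulative share of estimated counts (vertical axis, percent of the library) against genes ordered from the most abundant (horizontal axis, log scale), 1 line per library. Lines of replicates 3 and 4 cross 50% at 848 to 1111 genes and lines of replicates 1 and 2 at 475 to 643.

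Transcript length moved with the direction as well. The longest annotated transcript of a gene had a median length of 3640 bases among the higher genes, 2435 among uncalled genes and 1840 among the lower ones. Of 1425 genes whose longest transcript was under 1000 bases, 5.05% were higher and 48.8% lower in replicates 3-4. At 1000 to 2000 bases the shares were 8.56% and 42.1%, and at 2000 to 4000 bases 27.5% and 20.2%. Of 3668 genes of 4000 bases or more, 58.4% were higher and 6.76% lower. The higher genes had the longer median in each of the 5 classes of level, from 3224 against 1290 bases over 1000 CPM to 2595.5 against 1234.5 bases under 1 CPM.

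Genes of 4000 bases or more held 11.2% to 21.5% of the counts in libraries of replicates 1-2 and 23.9% to 27.4% in replicates 3-4. Control replicate 2 had the lowest of these shares and shRNA replicate 3 the highest. The mean fragment length read from the tables was 299.6 to 318.6 bases in the first set and 304.6 to 322.1 bases in the second, so the sets overlapped in it. When a smooth trend of each library's deviations on transcript length was removed, an alternative chosen after the length pattern had been seen, 4012 genes were higher and 4237 lower, of which 6493 were among the main calls. The shares at 4000 bases or more were then 27.4% and 25.5%, and over 1000 CPM 8.62% and 48.3%. The part of length in the set difference, and of RNA quality or library preparation in the length pattern, was not tested.

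**Figure D3:**
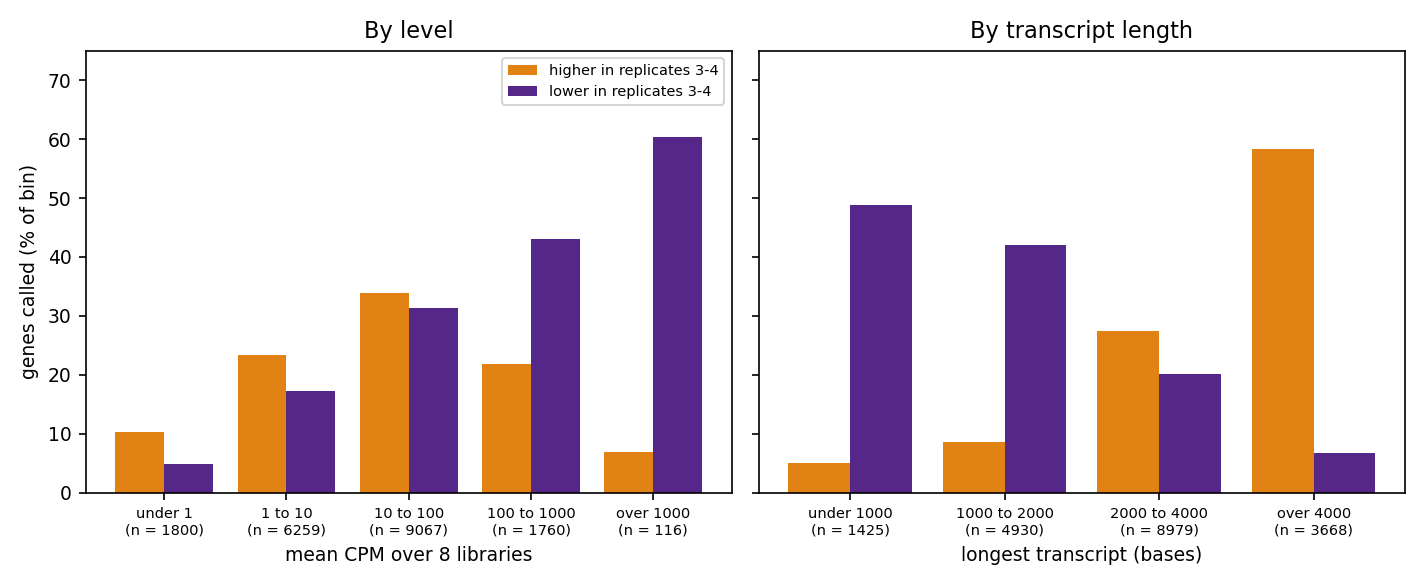
Share of genes called higher (orange) and lower (purple) in replicates 3-4, in percent of the tested genes of a class (vertical axis), by mean CPM on the left and by length of the longest transcript on the right, with the number of genes under each pair of bars. Lower genes make up 60.3% of the highest level class and 48.8% of the shortest class, and higher genes 58.4% of the longest class.

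Outside the cnidocyte collection the genes of smallest p carry identifiers only. Where the levels of the 4 libraries of a set are listed here and in what follows, they stand as shRNA and then control of the lower replicate number, followed by shRNA and then control of the higher one, unless the libraries are named. NV2.25136 had no count in any library of replicates 1-2 and measured 33.1 and 42.4 CPM in shRNA replicates 3 and 4 and 26.5 and 43.7 CPM in control replicates 3 and 4. NV2.1518 likewise had none in replicates 1-2 and measured 12.7, 16.7, 11.1 and 8.34 CPM in the 4 libraries of replicates 3-4. Against a floor of 3 counts over the 4 libraries at 0, they were at least 971-fold and at least 326-fold higher. The genes named here were chosen for a small p and for sets without overlap, so neither trait is a result. The filter on low counts was grouped by set, so a gene absent from a set could pass through the other set alone, as these did.

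NV2.17622 showed the opposite pattern, with 2.96, 11.5, 5.75 and 10.1 CPM in replicates 1-2 and no count in replicates 3-4, which is at least 255-fold lower by the same floor. NV2.2649 was present in both sets, at 16.2 ± 3.89 CPM (SD, n = 4) and 2.90 ± 0.471 CPM (SD, n = 4), a log2 difference of -2.48 ± 0.25 (SE). All 4 genes, which were chosen by their p, had an adjusted p of 0.00579 in edgeR's quasi-likelihood test over 8 libraries. On counts summed per replicate number NV2.2649 had an adjusted p of 0.0685 in edgeR's test and was not called. NV2.25136, NV2.1518 and NV2.17622 were called there, with adjusted p of 0.00762 to 0.00801. In the libraries where NV2.25136, NV2.1518 and NV2.17622 had counts, their sums were fractional, so part of their reads was divided with other genes. After rounding, 736 genes had no count in replicates 1-2 and 303 none in replicates 3-4. In 55 and 5 of these every library of the other set held a count. Only 4 of the 736 and 2 of the 303 passed the filter on low counts. A gene at 0 in a set had to reach the minimum in all 4 libraries of the other set. Nearly all of these genes therefore missed it in some library there.

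Of the 38 cnidocyte genes, 34 passed the filter on low counts, and 5 of them were higher and 7 lower in replicates 3-4. The called share of 35.3% stood against 52.3% of all genes tested, and the median log2 difference was -0.26 against -0.000747 over all genes. The longest transcripts of the 34 genes had a median of 1973.5 bases. Over all genes of 1000 to 2000 bases the median log2 difference was -0.57. Compared with all genes of their own length class, the 34 genes lay at a median percentile of 56.2. The higher genes were znf845, foxE-like, ATF2-like1, NVE13546 and NVE17236, and the lower ones foxA, ncol3, ncol4, mcol1, Ngal, dkk3-like3 and NVE15733. In 3 genes all libraries of replicates 3-4 lay above those of replicates 1-2 (28.6% of all genes did), and in 6 they lay below (28% of all genes). None of the 34 was called on counts summed per replicate number. With the replicate number as a factor 20 were called, against 57.8% of all genes. This fit measures differences against the spread between same-numbered libraries after treatment, and not against the spread between replicate numbers. Without replicate 3 none of the 34 was called, and without replicate 2 only znf845, NVE17236 and ncol3 of the 12 remained. Over all genes, none was called without replicate 3, and 6191 of the 9943 main calls were also called without replicate 2.

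Among the regulators the early factors of the cnidocyte pathway were measured first. znf845, the zinc-finger gene that acts upstream of paxA, measured 32.8 and 10.8 CPM in the shRNA libraries of replicates 1 and 2, 23.9 and 12.7 CPM in their controls, 63.1 and 57.9 CPM in the shRNA libraries of replicates 3 and 4, and 68.3 and 59.7 CPM in their controls. All 4 libraries of the second set lay above all 4 of the first, and replicate 2 was the lowest. The log2 difference was 1.64 ± 0.35 (SE), a 3.11-fold higher level, with an adjusted p of 0.00655 by edgeR's quasi-likelihood test. It ranged from 1.13 to 2.41 over 28 alternatives, 24 of which called it. The alternatives share libraries and are not independent. The alternative without a fold limit reuses the main fit, so its call was fixed in advance. Inside the first set replicate 2 was lower than replicate 1 by a log2 difference of -1.26 (adjusted p = 0.00064, edgeR with replicate number as a factor), where 35.1% of all genes were called. That p takes no account of the spread between replicate numbers. Without replicate 2 the difference between the sets was 1.13 and was still called.

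paxA measured 80.3 and 46.4 CPM with shRNA and 75.5 and 26.11 CPM with control RNA in replicates 1 and 2, and 70.6 and 103 CPM with shRNA and 106 and 108 CPM with control RNA in replicates 3 and 4. The sets overlapped through shRNA replicate 3, which lay under both libraries of replicate 1. The log2 difference of 0.76 ± 0.35 (SE) had an adjusted p of 0.0875 in edgeR's test and was not called. DESeq2 called paxA at 0.79 (adjusted p = 0.0446) and edgeR called it at 1.43 without replicate 1 (adjusted p = 0.00522), while it was 0.29 without replicate 2 and 0.25 with the length trend removed. Leaving out replicate 1 keeps only replicate 2 in the first set, and 6235 higher and 5512 lower of 19863 genes were then called. sox2, which the study's collection marks as regulated by znf845, measured 34.9, 32.3, 23.2 and 22.8 CPM in replicates 1-2 and 34.4, 42.5, 33.0 and 36.6 CPM in replicates 3-4. Its sets overlapped too, with replicate 2 lowest, and the log2 difference was 0.37 (95% interval -0.10 to 0.83, adjusted p = 0.154, edgeR). sox2 was called at 0.85 with the length trend removed (adjusted p = 0.0197, edgeR) and at 0.67 without replicate 1 (adjusted p = 0.00738), and it was 0.11 without replicate 2.

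ATF2-like1, a bZIP-type factor by its name, was called higher together with znf845. It measured 38.8, 47.1, 23.8 and 22.9 CPM in replicates 1-2 and 65.4, 69.0, 57.2 and 67.1 CPM in replicates 3-4, without overlap. Its log2 difference was 0.96 ± 0.26 (SE) with an adjusted p of 0.0132 in edgeR's test, and 0.58 without replicate 2. foxE-like, the shRNA target, measured 29.7 and 15.8 CPM with control RNA in replicates 1 and 2 and 45.5 and 46.7 CPM in those of replicates 3 and 4, and 10.9, 7.10, 11.5 and 15.04 CPM in the shRNA libraries of replicates 1 to 4. Each treatment alone was thus higher in replicates 3-4 while the sets overlapped across treatments, and the log2 difference was 0.79 ± 0.26 (SE, adjusted p = 0.0283, edgeR), which became 0.45 with an adjusted p of 0.0772 without replicate 2.

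foxA, a forkhead gene known from the developing pharynx and blastopore region of Nematostella as well as from the collection, was the only factor called lower. It measured 224, 200.4, 274 and 294 CPM in replicates 1-2 and 152, 138, 145 and 176 CPM in replicates 3-4, so the sets did not overlap. Its log2 difference was -0.70 ± 0.18 (SE, adjusted p = 0.0117, edgeR). It was -0.84 with the length trend removed, and -0.48 without replicate 2 and -0.45 with scaling by library totals, both under the fold limit. coup-like1, of the nuclear receptor family, measured 68.8 to 76.0 CPM in replicates 1-2 and 45.5 to 65.2 CPM in replicates 3-4, without overlap, but its log2 difference of -0.38 ± 0.16 (SE) was under the fold limit and had an adjusted p of 0.068.

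Of the 15 factors, 2 were called higher and 1 lower, which is 20% against 52.3% of all genes, and the median log2 difference was -0.17. The 9 factors not yet described had log2 differences from -0.57 (coup-like2) to 0.63 (cnido-jun), of which Nkx2.2D, a homeobox gene, measured 30.1 ± 4.66 CPM in replicates 1-2 and 20.7 ± 1.34 CPM in replicates 3-4 (SD, n = 4) without overlap, with a log2 difference of -0.54 that was under the fold limit (adjusted p = 0.0294, edgeR). Nkx2.2D was called lower at -1.07 with the length trend removed (adjusted p = 0.007) and at -0.71 without replicate 1 (adjusted p = 0.0041, where 5512 of 19863 genes were called lower), and it was -0.35 without replicate 2. With that trend removed foxL2 was also called lower (-1.28, adjusted p = 0.00574). The summed level of the 15 factors was 537 to 581 CPM in replicates 1-2 and 495 to 621 CPM in replicates 3-4.

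All 7 capsule genes had a negative log2 difference, with a median of -0.94, and 4 were called lower, where 25.4% of all genes and 48.8% of those under 1000 bases were. Over all genes under 1000 bases, the class of most capsule genes, the median was -0.93. Compared with all genes of their own length class, the 7 genes lay at a median percentile of 43.7. ncol3, a minicollagen and a broad marker of cnidocytes, measured 682, 612, 785 and 537 CPM in replicates 1-2 and 320, 413, 484 and 506 CPM in replicates 3-4. The sets did not overlap, but the nearest libraries, control replicates 2 and 4, lay close together. Its log2 difference was -0.60 ± 0.20 (SE, adjusted p = 0.0335, edgeR), just past the fold limit. RLE scaling, DESeq2 and the fit without the filter on low counts put it under that limit. With scaling by library totals it was -0.35 (adjusted p = 0.158, edgeR), and 9 of 28 alternatives called it.

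Ngal, put among the capsule genes here, had the largest difference of that class. It measured 360 and 510 CPM with shRNA and 452 and 670 CPM with control RNA in replicates 1 and 2, and 109 and 229 CPM with shRNA and 191 and 356 CPM with control RNA in replicates 3 and 4. The sets met without overlap at shRNA replicate 1 and control replicate 4. The log2 difference was -1.20 ± 0.30 (SE, adjusted p = 0.011, edgeR), a 2.30-fold lower level. Without replicate 2 it was -0.92 and not called (adjusted p = 0.0753), without replicate 3 -0.78 (adjusted p = 0.111) and without replicate 4 -1.75 (adjusted p = 0.0219).

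The minicollagen gene ncol4 measured 166, 251, 236 and 317 CPM in replicates 1-2 and 52.1, 148, 108 and 176 CPM in replicates 3-4. Only control replicate 4 of the second set exceeded a library of the first, shRNA replicate 1. ncol4 differed by a log2 of -1.07 ± 0.26 (SE, adjusted p = 0.00993, edgeR). mcol1 measured 102, 175, 127 and 197 CPM in replicates 1-2 and 32.1, 82.4, 63.3 and 131 CPM in replicates 3-4, again with control replicate 4 inside the range of the first set, and its log2 difference was -1.03 ± 0.26 (SE, adjusted p = 0.0109, edgeR). Without replicate 2 neither was called, with ncol4 at -0.86 (adjusted p = 0.0509) and mcol1 at -0.92 (adjusted p = 0.0517).

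The 3 uncalled capsule genes overlapped between the sets. The minicollagen ncol1 measured 68.2 to 122 CPM in replicates 1-2 and 31.3 to 94.98 CPM in replicates 3-4, with a log2 difference of -0.52 (95% interval -1.01 to -0.03, adjusted p = 0.0663, edgeR). Ncol measured 1.93 to 7.92 CPM and 0.382 to 6.38 CPM, with a difference of -0.94 ± 0.47 (SE, adjusted p = 0.113), or -1.88 without replicate 4 (adjusted p = 0.0335). ggt measured 134 to 217 CPM and 75.3 to 259 CPM, with a difference of -0.06 (95% interval -0.73 to 0.62, adjusted p = 0.883), which turned to 0.17 with scaling by library totals.

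Transcript length moved with the capsule result. Of the capsule genes, 5 had a longest transcript of 611 to 961 bases, in the class where 48.8% of all genes were lower, and Ngal and ggt had 1955 and 2064 bases. With the length trend removed, 4 of the 7 remained negative and the median was -0.15. ncol1, ncol3 and ggt then turned to 0.15, 0.14 and 0.12, ncol4 and mcol1 were no longer called at -0.32 and -0.26, and Ngal kept its call at -0.96 (adjusted p = 0.0184, edgeR). Within its own length class Ngal lay at the 13.7th percentile of log2 differences, while the other 6 capsule genes lay between 41.9 and 66.5. How much of the capsule difference goes with length was not tested beyond these values.

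The capsule genes also differed inside the sets. Their summed level was 1554 and 1864 CPM with shRNA and 1833 and 1971 CPM with control RNA in replicates 1 and 2. In replicates 3 and 4 it was 620 and 1110 CPM with shRNA and 1076 and 1530 CPM in the controls. Replicate 3 was the lowest in either treatment, and control replicate 4 lay just under shRNA replicate 1, so the sets did not overlap after TMM scaling. Without TMM, relative to library totals alone, the sum was 1622 CPM in control replicate 4 and 1492 CPM in shRNA replicate 1, so that the sets overlapped. Without replicate 3 no capsule gene was called, as was no gene of the 19447 tested then, the median log2 difference was -0.38 and ggt was positive.

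**Figure D4:**
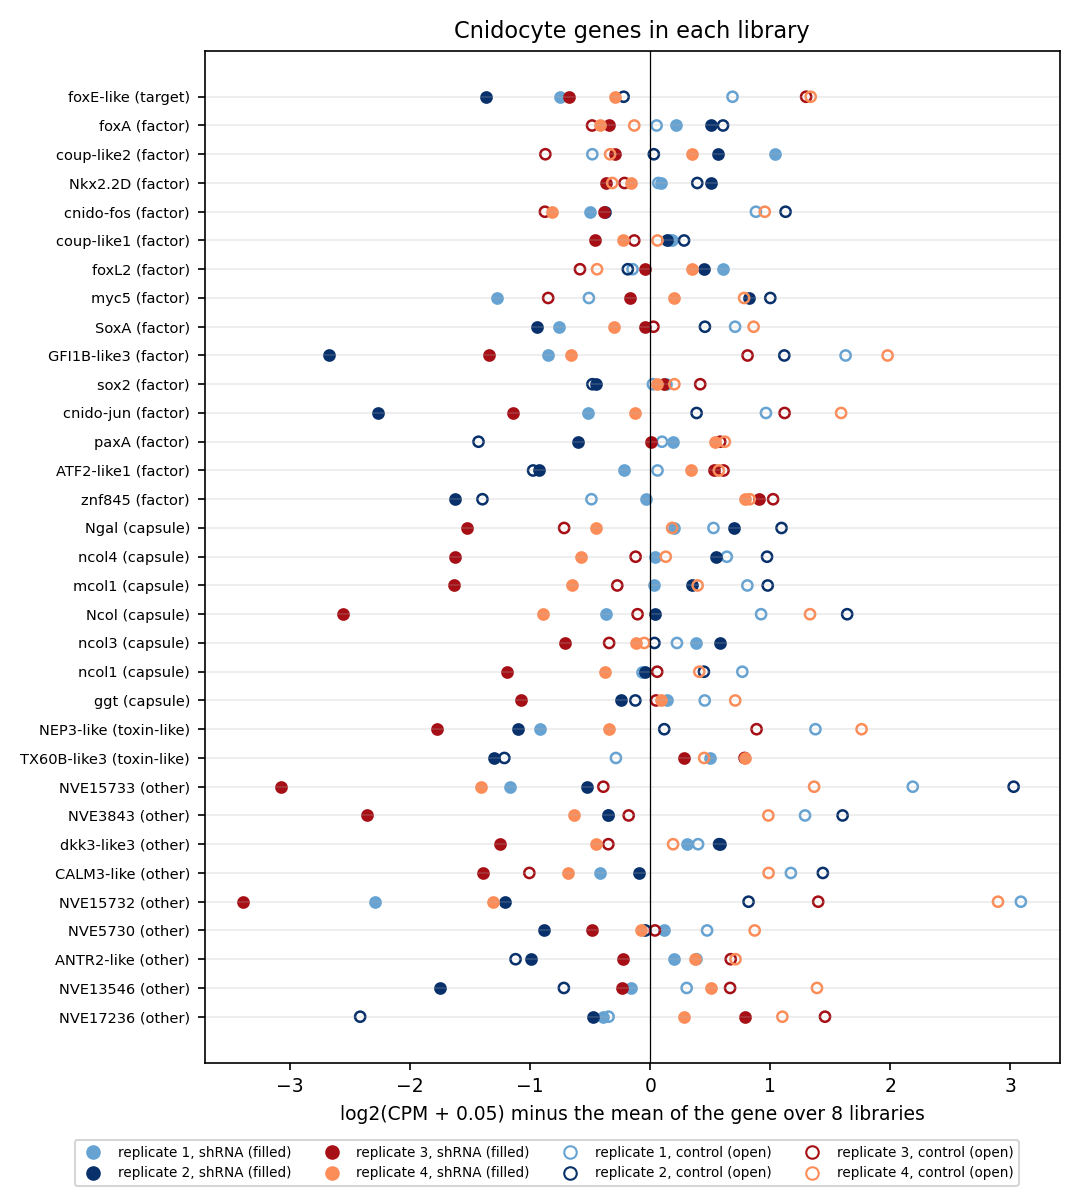
Level of 33 tested cnidocyte genes in each library, as log2(CPM + 0.05) minus the mean of the gene over 8 libraries (horizontal axis). Filled points are shRNA libraries and open points controls, blue for replicates 1 and 2 and red or orange for replicates 3 and 4. The red and orange points lie to the right of the blue ones for znf845 and to the left for Ngal, and mix with them in the 24 genes shown whose sets overlap.

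Among the toxin genes only NEP3-like and TX60B-like3 passed the filter, and neither was called. NEP3-like, named after the nematocyst toxin NEP3, measured 16.8, 82.8, 14.8 and 34.5 CPM in replicates 1-2 and 9.27, 58.9, 25.1 and 108 CPM in replicates 3-4. The ranges overlapped almost wholly, and the log2 difference was 0.32 (95% interval -0.55 to 1.18, adjusted p = 0.498, edgeR). TX60B-like3 measured 8.21, 4.75, 2.33 and 2.47 CPM in replicates 1-2 and 7.05, 10.03, 10.03 and 7.93 CPM in replicates 3-4. Only shRNA replicate 1 of the first set reached into the second, and the difference was 0.99 (95% interval 0.09 to 1.90, adjusted p = 0.0609, edgeR), which was not called. TX60B-like3 was called at 1.35 with the length trend removed (adjusted p = 0.0299, edgeR), at 1.87 without replicate 1 (adjusted p = 0.00105, where 6235 of 19863 genes were called higher) and at 1.03 in DESeq2 (adjusted p = 0.0237), and it was 0.45 without replicate 2 (adjusted p = 0.255).

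The other toxin genes and NVE26200 did not pass the filter on low counts. NEP3 held 16 counts over the 4 libraries of replicates 1-2 and 26 over those of replicates 3-4. NEP8 held 11 and 12 counts, Tx60B-like5 26 and 26, and NVE26200 10 and 19. On counts summed per replicate number edgeR gave NEP3 a log2 difference of 0.48 (adjusted p = 0.744) and Tx60B-like5 one of -0.29 (adjusted p = 0.808), and NEP8 and NVE26200 had no test.

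Of the 9 tested genes in the remaining class, 2 were higher and 2 lower, which is 44.4% and near the 52.3% of all genes. NVE17236 measured 0.780, 0.808, 0.735 and 0.154 CPM in replicates 1-2 and 1.84, 2.94, 1.28 and 2.29 CPM in replicates 3-4, without overlap. Its log2 difference of 1.72 ± 0.51 (SE, adjusted p = 0.0196, edgeR) became 0.84 with an adjusted p of 0.148 once the length trend was removed, and its longest transcript was 5007 bases. NVE13546 measured 26.9, 37.2, 8.88 and 18.2 CPM in replicates 1-2 and 25.6, 47.8, 42.9 and 78.9 CPM in replicates 3-4. These ranges overlapped and replicate 2 was the lowest, and the log2 difference was 1.06 ± 0.39 (SE, adjusted p = 0.043, edgeR), or 0.54 (adjusted p = 0.185) without replicate 2.

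NVE15733 had the largest negative difference of the collection. It measured 8.99, 92.8, 14.1 and 166 CPM in replicates 1-2 and 2.36, 15.5, 7.61 and 52.5 CPM in replicates 3-4. The ranges overlapped across treatments, since controls of the second set lay above shRNA libraries of the first, but within each treatment both libraries of replicates 3-4 lay below. The log2 difference was -1.59 ± 0.48 (SE, adjusted p = 0.022, edgeR) and -1.08 with an adjusted p of 0.059 with the length trend removed. For NVE15733 it ranged from -0.93 without replicate 3 (adjusted p = 0.12) to -2.65 without replicate 4 (adjusted p = 0.0169), and was -1.20 without replicate 2 (adjusted p = 0.137).

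dkk3-like3, a Dickkopf-family gene of cnidocytes, measured 11.8, 12.5, 14.2 and 14.1 CPM in replicates 1-2 and 3.96, 7.44, 6.93 and 10.8 CPM in replicates 3-4. The sets did not overlap, with shRNA replicate 3 the lowest. Its log2 difference was -0.90 ± 0.27 (SE, adjusted p = 0.0198, edgeR) and -0.29 with the length trend removed, no longer called (adjusted p = 0.33).

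Of the uncalled genes of this class, NVE3843 measured 25.4 to 98.6 CPM in replicates 1-2 and 6.28 to 64.2 CPM in replicates 3-4, a log2 difference of -0.92 (95% interval -1.77 to -0.08, adjusted p = 0.0609, edgeR). CALM3-like, of the calmodulin family by its name, measured 7.06 to 25.8 CPM and 3.58 to 18.8 CPM, a difference of -0.88 (adjusted p = 0.0814). NVE5730 measured 6.49 to 16.8 CPM and 8.57 to 22.1 CPM, a difference of 0.15 (adjusted p = 0.67). In each of the 3 genes the sets overlapped. Without replicate 4 NVE3843 was called lower at -1.79 (adjusted p = 0.0162, edgeR) and CALM3-like at -1.69 (adjusted p = 0.0308), while both were at -0.37 without replicate 3. DESeq2 also called NVE3843 (-0.91, adjusted p = 0.0308). ANTR2-like, named after the anthrax toxin receptor family, had a difference of 0.63 (adjusted p = 0.184) and NVE15732 one of -0.15 (adjusted p = 0.856). Without replicate 1 ANTR2-like was called at 1.46 (adjusted p = 0.00397, where 6235 of 19863 genes were called higher) and without replicate 2 it was 0.093.

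The 2 numbers inside a set also differed from each other, and unequally. Replicate 2 differed from replicate 1 in 6674 genes (35.1%), of which 2434 (12.8%) were higher and 4240 (22.3%) lower in replicate 2, with a median size of the log2 difference of 0.57 over all genes. Replicate 4 differed from replicate 3 in 1037 genes (5.46%), 289 (1.52%) higher and 748 (3.94%) lower, with a median size of 0.27. Both medians were under the 0.80 between the sets. The calls inside the sets rest on the spread between same-numbered libraries after treatment, so they hold no error between replicate numbers. The contrasts share no library, and 647 genes were called in both, which is 9.69% of the calls between replicates 1 and 2 and 62.4% of those between 3 and 4, with the same sign in 599. Across genes, which are not independent, the 2 contrasts correlated with r = 0.29. Length moved with these contrasts too: the genes lower in replicate 2 had a median longest transcript of 3544 bases against 1679.5 for the higher ones, and in replicate 4 the medians were 4947.5 and 1959 bases.

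In the cnidocyte genes the contrasts inside the sets took different directions. Replicate 4 was higher than replicate 3 in all 9 genes called, where 1.52% of all genes were called higher and 3.94% lower. Of the 9, 4 were capsule genes, 4 were in the remaining class and 1 was the toxin gene NEP3-like. The capsule genes were Ngal (log2 difference 0.98), mcol1 (0.81), ggt (0.88) and Ncol (1.54), and the median over all 7 was 0.81. Between replicates 1 and 2, 11 genes were called (background 35.1%), 2 higher (background 12.8%) and 9 lower (background 22.3%) in replicate 2. No capsule gene was among them. The higher ones were NVE15733 and myc5, and the lower ones included znf845, paxA, ATF2-like1 and cnido-jun, the last a member of the jun family by its name.

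**Figure D5:**
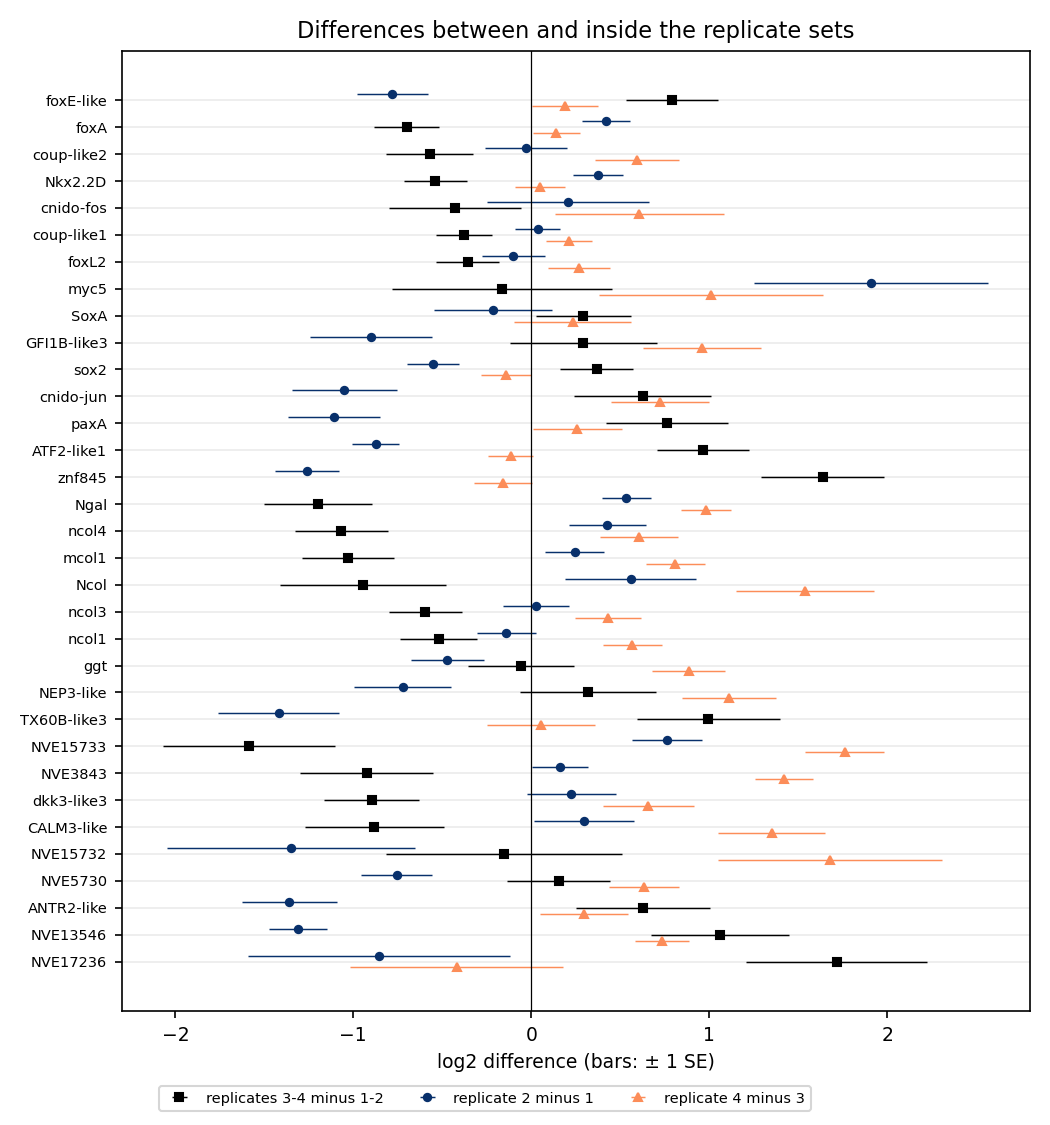
Log2 differences of 33 tested cnidocyte genes (horizontal axis) between the sets (black squares), between replicates 2 and 1 (blue circles) and between replicates 4 and 3 (orange triangles). Bars are ± 1 SE of the edgeR fits. For the capsule genes the black squares lie at or under 0 and the orange triangles above 0, from 0.43 for ncol3 to 1.54 for Ncol.

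The set difference was also compared between treatments. No gene had a called interaction of set and treatment, with a smallest adjusted p of 0.102, and 71 higher and 62 lower genes passed the fold limit at an unadjusted p under 0.05. DESeq2 called 4 genes and edgeR without the filter on low counts called 1. In the 7 capsule genes the median log2 difference was -1.26 with shRNA and -0.55 with control RNA, and the interaction adjusted p was 1 for all 34 cnidocyte genes. An interaction that misses the threshold does not show that the set difference was equal in both treatments.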

How the data were processed

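The authors mapped bulk mRNA reads (paired ends of 150 bases) with Salmon to the transcripts of the Nematostella genome on the Galaxy platform. Salmon and DESeq2 are named, without versions, in the submitters' processing notes. Strand and bias settings: not given in the sources used here. Each deposited table lists 35819 transcripts with Salmon's estimated counts, which can be fractional. The deposited TPM values, which Salmon scales to a fixed total per library, served to group genes by level in an alternative. They also weighted the effective lengths of a gene's transcripts in a fit with these lengths as offsets, which called 5058 higher and 4816 lower genes. The deposited lengths and effective lengths gave transcript length and mean fragment length, the latter from transcripts of at least 2000 bases.

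Estimated counts were summed per gene (24520 genes, 23769 with a count) and rounded. In a library 29.0% to 42.1% of detected genes had a sum within 0.01 of a whole number. Genes were filtered with filterByExpr (minimum count 10, grouped by set) and scaled by TMM. They were tested with the quasi-likelihood F test of edgeR 4.0.16 under R 4.3.3, with set and treatment as terms, over all genes. The thresholds are those of the study (adjusted p 0.05 and a difference of 1.5-fold). The study's methods name DESeq2 and no covariate. Scripts were tested on simulated data. A count of 0 was given a floor of 3 counts, for counting error only.

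Same-numbered libraries were treated as pairs in alternatives because the methods describe pairs. The deviations of the shRNA and control libraries from their set and treatment means correlated across genes at r = 0.57 for replicates 1-2 and 0.41 for replicates 3-4, and limma 3.58.1 estimated a common correlation of 0.69. With 2 numbers per set this check is weak.

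The cnidocyte genes are the 38 with an identifier in the study's supplementary collection, which was read from a PDF. All entered the counts of genes, and 1 tested gene is not reported here by name or in the plots. Given are values per library or ranges for called genes and the 3 uncalled genes of highest mean count per class. Outside the collection the genes of smallest p without overlap were named, 2 in each direction. Members, lists and tests were chosen with earlier results of these data known. The RefSeq gene table matched 0 identifiers, so no positions or sequences are given, and no counts could be tied to markers of other cell types. Alternatives were other scalings, filters, tests, pairings and left-out libraries. The removal of the length trend and the shares by level without replicate 2 were added after the data were seen.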

Additional observations from a re-analysis of the deposited data

Results flagged for a closer look

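In 4 of 84 groups of 4 libraries, 1 library of a cnidocyte gene lay far from the other 3 of its set (Dixon's test, which flags about 1 in 20 groups by chance). NVE17236 measured 0.154 CPM in control replicate 2, against 0.735 to 0.808 CPM in the other libraries of replicates 1-2. cnido-fos measured 11.2 CPM in control replicate 4, against 3.10 to 4.37 CPM in the other libraries of replicates 3-4, and CALM3-like measured 18.8 CPM there, against 3.58 to 5.88 CPM. paxA measured 70.6 CPM in shRNA replicate 3, against 103 to 108 CPM in the other libraries of replicates 3-4. The sets mix the treatments, and the part of treatment in these values was not tested here.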

How the results depend on the processing

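The counts of calls (5108 higher, 4835 lower) moved by over 1.5 times in either or both directions under the settings that follow, except where stated. Library totals gave 3177 lower. The shRNA libraries alone gave 2097 higher and 868 lower, and the control libraries 0 and 0. Counts summed per replicate number gave 8 and 4, of which 8 are among the main calls. A test against the fold limit itself (glmTreat) gave 2989 and 2068. With the replicate block as a factor there were 5780 higher and 5197 lower genes, which is a smaller move. That fit leaves out the spread between replicate numbers. With the block as a random effect in limma's voom fit there were 3555 and 3050, of which only the lower count moved by over 1.5 times. The lower counts without replicate 2 (2658) and without replicate 4 (2632) did so too. Over the fits that left out libraries the counts ranged from 0 to 6235 higher and from 0 to 5512 lower, with 0 in both directions only without replicate 3. The interaction had 0 calls in the main fit, 1 without the filter on low counts and 4 in DESeq2. Between replicates 1 and 2, library totals gave 1124 genes higher in replicate 2 in place of 2434.

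By mean TPM in place of mean CPM, the shares higher were 17.8%, 32.4%, 27.4%, 11.4% and 2.206% from the lowest to the highest class of level, and the shares lower in the upper 3 classes 36.3%, 59.4% and 74.3%. Without replicate 2 the shares higher in the lower 3 classes were 3.599%, 12.3% and 26.25%, and the shares lower 0.626%, 6.51%, 19.0%, 25.2% and 37.5%.

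Among the cnidocyte genes reported here, ncol3 was the only called gene that changed sign under these alternatives, to 0.14 with the length trend removed. With that trend removed the uncalled ncol1 (0.15), ggt (0.12), cnido-fos (0.22), NVE15732 (0.12), NVE5730 (-0.56) and SoxA (-1.12, then called) also turned. Library totals turned myc5 (0.107), ggt (0.17) and NVE15732 (0.042), and tests per transcript turned NVE5730 (-0.054). The controls alone turned SoxA (-0.076) and ggt (0.23). Summed counts turned ggt (0.011) and NVE15732 (0.093). The replicate block as a factor turned myc5 (0.027), and as a random effect GFI1B-like3 (-0.091), myc5 (0.042) and NVE15732 (0.39). Over the fits that left out libraries the values ranged from -0.54 to 0.34 for ggt, from -1.26 to 0.61 for NVE15732, from -0.85 to 1.06 for myc5, from -0.22 to 0.89 for GFI1B-like3, from -0.18 to 0.59 for NVE5730 and from -0.34 to 0.79 for NEP3-like. The cause was not tested.

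Of the 12 cnidocyte calls, 12 held with the block as a factor, 9 with the block as a random effect, 11 in DESeq2, 9 with library totals, 5 with the length trend removed, 2 in glmTreat and 0 on summed counts. Of the 9943 calls over all genes, 9904, 6593, 9818, 8285, 6493, 5057 and 8 were also called in these settings, in that order. By gene, ncol3 was called in 9 of 28 alternatives, NVE13546 in 13 and foxE-like in 14, against 24 for znf845. Among these alternatives, the fit without a fold limit is the main fit again, so it kept all 12 calls by construction. Each set and treatment had 2 libraries, which limits the precision of every comparison here.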
